A study of Mus musculus with 12 samples.

Results

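Genes of macrophages and Kupffer cells, 34 in all, were followed across 12 mouse liver libraries. They were chosen by symbol from a list of known marker genes, a rule that uses no measured value, although the list was drawn up with earlier results of these libraries known. They comprise 5 markers of resident Kupffer cells (Clec4f, Timd4, Cd5l, Vsig4 and Marco) and 29 markers of macrophages in general or of recruited myeloid cells. All 34 were found among the 22537 gene symbols measured, and all 34 were among the 13968 genes with enough reads to be tested.

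Kupffer cells are the macrophages that live in the sinusoids of the liver, where they take up microbes, dying cells and spent red cells from portal blood. They are seeded before birth and renew themselves, and their survival depends on signalling through the receptor Csf1r. Under injury or a fat-rich diet, monocytes that carry Ccr2 enter the liver and become macrophages, and some of these take on a lipid-handling state marked by Trem2 and Gpnmb. AHR, the aryl hydrocarbon receptor, is a ligand-activated transcription factor that binds DNA together with ARNT, which also partners the hypoxia-inducible factors.

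The libraries were made from poly-A RNA of whole liver from female C57BL/6 mice aged 6 months that had been fed a high-fat diet for 13 weeks. There were 4 genotype groups with 3 mice each: ARNT KO and its floxed control ARNT Flox, and AHR KO and its floxed control AHR Flox. The study's title places the loss of AHR or ARNT in the liver. Not given in the sources used here are the recombinase line and its promoter, the part of each gene that was deleted, and whether macrophages also lost the gene. Values are CPM, counts scaled to a common library size, and each list of 3 values runs from replicate 1 to replicate 3. Called below means an adjusted p under 0.05 in edgeR's quasi-likelihood test over all genes tested, and log2 changes carry a standard error (SE). For edgeR this SE was derived as the absolute log2 change divided by the square root of the test's F statistic. In bulk tissue, fewer cells of a type and less RNA per cell cannot be told apart.

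Total counts ran from 23585909 to 33255004 per library. ARNT KO replicate 3 stood apart from the other 11 libraries: on the first principal component it lay at 49.6, against −23.2 to 21.5 for the rest. Results are therefore given both with all 12 libraries and without that library. Arnt was at 25.2, 23.9 and 19.0 CPM in ARNT KO, against 47.8, 52.5 and 50.3 CPM in ARNT Flox. Ahr was at 84.4, 94.8 and 80.3 CPM in the libraries labelled AHR KO, against 53.9, 78.8 and 72.4 CPM in AHR Flox. Whole-gene counts cannot check the AHR KO label, because the deleted part is not stated, and AHR KO below means the libraries so labelled. Alb, which encodes hepatocyte albumin, had 51926, 53685 and 5740 CPM in ARNT KO, 69704, 87894 and 70516 CPM in ARNT Flox, 7089, 5491 and 6352 CPM in AHR KO, and 78433, 89275 and 84389 CPM in AHR Flox. All AHR KO libraries and ARNT KO replicate 3 were thus low in Alb, and the part of this in the macrophage results was not tested.

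Every macrophage gene had reads in every library, the lowest being 5 counts of Gpnmb in AHR KO replicate 2. Scaled to exon length as well as library size (RPKM, mean of 12 libraries), the highest level was that of Cd5l at 78.1, followed by C1qa at 66.5, Clec4f at 64.1, Lyz2 at 59.0, C1qb at 56.5 and Ctss at 37.5 RPKM. The lowest levels were those of Gpnmb at 0.289, Ly6c2 at 0.347 and Itgam at 0.395 RPKM. The classes did not keep a strict order. The resident markers Marco at 8.67 RPKM and Timd4 at 4.05 RPKM were far below Cd5l and Clec4f. Of the monocyte and lipid-associated genes, Cd9 at 6.35, Lgals3 at 5.24 and Cd14 at 4.53 RPKM lay above Timd4. Ranges across libraries overlapped between most neighbours in this order: Cd5l spanned 50.3 to 133 RPKM and C1qa 46.5 to 105 RPKM. Lyz2 and Ly6c2 have closely similar neighbours, Lyz1 and Ly6c1, and how shared reads were counted is not given in the sources used here, so their levels are uncertain. The annotated spans of Cx3cr1, Csf1r and Itgam overlap other protein-coding genes, so their levels are uncertain too.

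**Figure D1:**
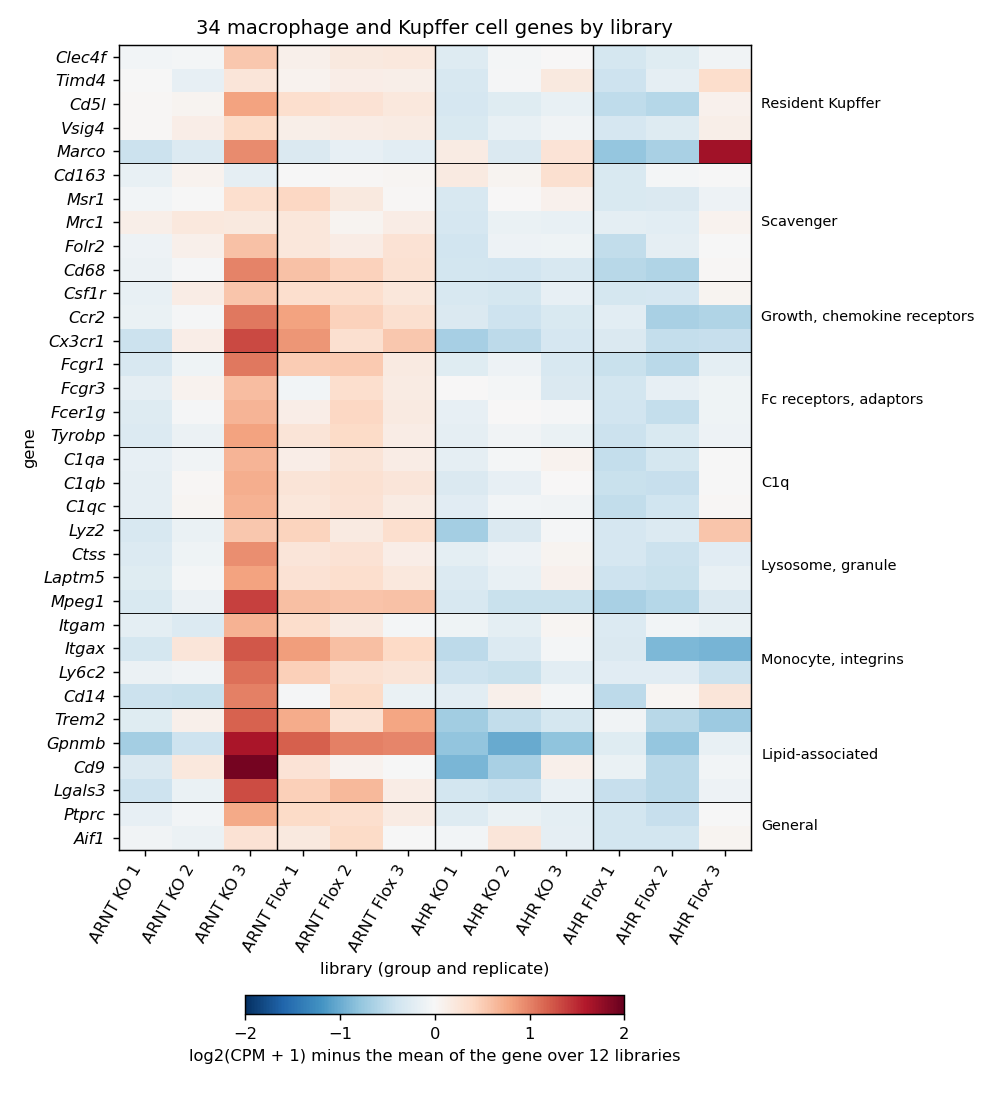
Level of each of the 34 genes (rows, grouped by role) in each of the 12 libraries (columns), as log2(CPM + 1) minus the gene's mean over the 12 libraries, with red above and blue below that mean. ARNT KO replicate 3 is the reddest column, with 27 of the 34 genes above every other library, and ARNT Flox is redder than AHR Flox.

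Of the 5 resident Kupffer markers, Clec4f and Cd5l were the most abundant and Marco the most scattered. Clec4f (mm10, chr6:83644542-83656187), a C-type lectin found on Kupffer cells and hardly elsewhere, was at 151, 152 and 227 CPM in ARNT KO, 167, 178 and 181 CPM in ARNT Flox, 131, 153 and 158 CPM in AHR KO, and 122, 132 and 149 CPM in AHR Flox. Cd5l, a secreted protein that protects macrophages from apoptosis, was at 155, 159 and 270.1 CPM in ARNT KO, 194, 188 and 177 CPM in ARNT Flox, 122, 130.3 and 139 CPM in AHR KO, and 107, 102 and 163 CPM in AHR Flox. For both genes ARNT KO replicate 3 was the highest library, ARNT KO replicates 1 and 2 lay below all ARNT Flox libraries, and ARNT Flox lay above AHR Flox without overlap. Timd4, a receptor for phosphatidylserine on dying cells carried by long-resident Kupffer cells, was at 8.66, 7.69 and 10.5 CPM in ARNT KO, 9.14, 9.64 and 9.55 CPM in ARNT Flox, 6.77, 8.51 and 10.03 CPM in AHR KO, and 6.30, 7.52 and 11.3 CPM in AHR Flox. Vsig4, a complement receptor of resident macrophages, was at 43.1, 46.6 and 55.7 CPM in ARNT KO, 46.1, 47.0 and 47.6 CPM in ARNT Flox, 34.2, 38.1 and 40.1 CPM in AHR KO, and 33.4, 35.0 and 45.97 CPM in AHR Flox. Timd4 overlapped between the Flox groups and Vsig4 did not. Marco, a scavenger receptor for bacteria and particles, was at 10.6, 11.8 and 28.9 CPM in ARNT KO, 11.7, 12.8 and 12.5 CPM in ARNT Flox, 16.4, 11.6 and 17.7 CPM in AHR KO, and 8.11, 8.92 and 49.0 CPM in AHR Flox. Its highest library was AHR Flox replicate 3, several times above its group mates, and the other AHR Flox libraries were the lowest of all.

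Among the scavenger receptors and uptake proteins, the groups differed most in Cd68. Cd68, a lysosomal glycoprotein of phagocytes, was at 13.1, 14.04 and 29.3 CPM in ARNT KO, 21.8, 20.1 and 17.9 CPM in ARNT Flox, 10.9, 10.7 and 11.2 CPM in AHR KO, and 9.43, 9.02 and 14.5 CPM in AHR Flox. Msr1, a receptor for modified lipoproteins, was at 13.3, 13.7 and 17.7 CPM in ARNT KO, 18.7, 15.97 and 14.1 CPM in ARNT Flox, 10.8, 13.8 and 14.7 CPM in AHR KO, and 11.03, 11.04 and 12.8 CPM in AHR Flox. Folr2, the folate receptor of resident macrophages, was at 15.7, 18.2 and 25.8 CPM in ARNT KO, 20.0, 18.8 and 20.9 CPM in ARNT Flox, 12.8, 15.7 and 15.96 CPM in AHR KO, and 11.7, 14.8 and 16.8 CPM in AHR Flox. In each of these genes ARNT Flox lay above AHR Flox without overlap, and ARNT KO replicates 1 and 2 lay below ARNT Flox. Cd163, the receptor for haemoglobin bound to haptoglobin, was at 15.7, 18.3 and 15.4 CPM in ARNT KO, 17.3, 17.7 and 17.97 CPM in ARNT Flox, 20.0, 18.2 and 22.1 CPM in AHR KO, and 14.03, 17.1 and 17.4 CPM in AHR Flox. Mrc1, the mannose receptor, which liver sinusoidal endothelium also makes, was at 59.4, 63.4 and 63.1 CPM in ARNT KO, 64.2, 57.0 and 61.0 CPM in ARNT Flox, 43.1, 49.6 and 49.1 CPM in AHR KO, and 47.5, 47.1 and 57.5 CPM in AHR Flox. Cd163 and Mrc1 were the members in which ARNT KO replicate 3 did not exceed both of its group mates.

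The growth factor and chemokine receptors were higher in ARNT Flox than in AHR Flox in every library. Csf1r, the receptor for the macrophage growth factor CSF1, was at 64.4, 79.1 and 105 CPM in ARNT KO, 89.8, 90.7 and 83.7 CPM in ARNT Flox, 57.2, 55.8 and 63.8 CPM in AHR KO, and 55.6, 56.0 and 74.2 CPM in AHR Flox. Ccr2, which draws monocytes toward the chemokine CCL2, was at 2.82, 3.15 and 7.72 CPM in ARNT KO, 6.34, 4.76 and 4.23 CPM in ARNT Flox, 2.44, 2.14 and 2.38 CPM in AHR KO, and 2.62, 1.67 and 1.78 CPM in AHR Flox. Cx3cr1, the fractalkine receptor, was at 1.02, 2.002 and 5.83 CPM in ARNT KO, 4.02, 2.41 and 2.97 CPM in ARNT Flox, 0.716, 0.906 and 1.16 CPM in AHR KO, and 1.23, 0.957 and 0.994 CPM in AHR Flox. In all 3 genes ARNT KO replicate 3 was the highest library, and replicates 1 and 2 lay below ARNT Flox.

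Among the receptors for antibody and their signalling chains, Fcgr3 differed from the other members. Fcgr1 (chr3:96282909-96293969), the high-affinity IgG receptor, was at 4.28, 5.18 and 12.6 CPM in ARNT KO, 8.37, 8.51 and 6.45 CPM in ARNT Flox, 4.59, 5.14 and 4.26 CPM in AHR KO, and 3.81, 3.52 and 4.72 CPM in AHR Flox. Fcer1g, the shared signalling chain of Fc receptors, was at 11.2, 13.3 and 22.3 CPM in ARNT KO, 14.9, 18.3 and 15.4 CPM in ARNT Flox, 11.9, 13.7 and 13.4 CPM in AHR KO, and 10.1, 9.40 and 12.7 CPM in AHR Flox. Tyrobp, the adaptor for Trem2 and related receptors, was at 12.1, 13.7 and 26.6 CPM in ARNT KO, 17.9, 19.6 and 16.6 CPM in ARNT Flox, 12.9, 14.1 and 13.5 CPM in AHR KO, and 10.8, 11.9 and 13.7 CPM in AHR Flox. ARNT Flox lay above AHR Flox without overlap in each, and ARNT KO replicates 1 and 2 lay below ARNT Flox. Fcgr3, a low-affinity IgG receptor, was at 9.06, 10.96 and 16.5 CPM in ARNT KO, 9.91, 13.3 and 11.7 CPM in ARNT Flox, 10.4, 10.03 and 8.28 CPM in AHR KO, and 7.76, 9.19 and 9.65 CPM in AHR Flox. For Fcgr3 the ARNT KO and ARNT Flox libraries overlapped even with replicate 3 set aside.

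C1qa, C1qb and C1qc lie next to each other on chromosome 4 and encode the 3 chains of C1q, which starts the classical complement pathway. C1qa was at 60.7, 64.5 and 109 CPM in ARNT KO, 74.2, 81.1 and 75.5 CPM in ARNT Flox, 59.6, 65.7 and 71.2 CPM in AHR KO, and 48.3, 53.0 and 67.2 CPM in AHR Flox. C1qb was at 52.7, 60.6 and 99.6 CPM in ARNT KO, 71.6, 73.9 and 70.6 CPM in ARNT Flox, 48.6, 53.1 and 60.01 CPM in AHR KO, and 43.8, 43.2 and 59.8 CPM in AHR Flox. C1qc was at 53.2, 62.3 and 98.8 CPM in ARNT KO, 70.8, 74.1 and 68.04 CPM in ARNT Flox, 51.3, 58.0 and 57.3 CPM in AHR KO, and 42.6, 45.6 and 61.7 CPM in AHR Flox. The 3 genes moved together, with ARNT KO replicate 3 above every other library by a similar factor in each (1.74, 1.76 and 1.71 times the mean of its group mates for C1qa, C1qb and C1qc).

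Of the lysosomal and granule genes, Mpeg1 separated the groups most. Mpeg1 (chr19:12460779-12465283), a pore-forming protein that macrophages insert into engulfed bacteria, was at 99.9, 114 and 322 CPM in ARNT KO, 189, 185 and 187 CPM in ARNT Flox, 98.7, 90.7 and 90.4 CPM in AHR KO, and 79.1, 83.1 and 102 CPM in AHR Flox. Ctss (chr3:95526786-95556403), the protease cathepsin S, was at 40.6, 46.5 and 95.0 CPM in ARNT KO, 58.6, 60.2 and 54.0 CPM in ARNT Flox, 43.0, 45.7 and 50.9 CPM in AHR KO, and 38.6, 36.3 and 41.8 CPM in AHR Flox. Both were highest in ARNT KO replicate 3, and in both ARNT Flox lay above AHR Flox and above ARNT KO replicates 1 and 2. Laptm5, a lysosomal membrane protein of leukocytes, was at 24.8, 28.7 and 52.6 CPM in ARNT KO, 36.4, 37.7 and 34.2 CPM in ARNT Flox, 24.2, 26.4 and 31.2 CPM in AHR KO, and 21.8, 21.4 and 26.4 CPM in AHR Flox. Lyz2, lysozyme, was at 60.1, 67.96 and 109 CPM in ARNT KO, 102, 85.4 and 95.0 CPM in ARNT Flox, 46.6, 61.0 and 73.9 CPM in AHR KO, and 59.5, 61.5 and 110.0 CPM in AHR Flox. Laptm5 followed the same order as Mpeg1, and Lyz2 did not separate the Flox groups.

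The monocyte and integrin genes were at low levels. Itgax, the integrin CD11c, was at 2.33, 4.04 and 9.07 CPM in ARNT KO, 6.58, 5.45 and 4.65 CPM in ARNT Flox, 1.98, 2.52 and 3.14 CPM in AHR KO, and 2.49, 1.30 and 1.24 CPM in AHR Flox. Itgam, the integrin CD11b, was at 1.55, 1.43 and 3.73 CPM in ARNT KO, 2.74, 2.32 and 1.84 CPM in ARNT Flox, 1.76, 1.55 and 2.01 CPM in AHR KO, and 1.43, 1.81 and 1.66 CPM in AHR Flox. Ly6c2, a surface protein of inflammatory monocytes, was at 0.714, 0.763 and 2.99 CPM in ARNT KO, 1.58, 1.28 and 1.21 CPM in ARNT Flox, 0.390, 0.356 and 0.596 CPM in AHR KO, and 0.579, 0.581 and 0.373 CPM in AHR Flox. ARNT KO replicate 3 was the highest library in each, and ARNT Flox lay above AHR Flox without overlap. Cd14, a co-receptor for bacterial lipopolysaccharide, was at 5.31, 5.24 and 15.99 CPM in ARNT KO, 7.32, 10.1 and 6.75 CPM in ARNT Flox, 6.34, 8.09 and 7.27 CPM in AHR KO, and 4.87, 7.72 and 9.07 CPM in AHR Flox. Its Flox groups overlapped.

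The genes of lipid-associated macrophages varied most between libraries. Trem2 (chr17:48346401-48354147), a receptor that senses lipids, was at 1.61, 2.32 and 6.002 CPM in ARNT KO, 4.14, 2.79 and 4.32 CPM in ARNT Flox, 0.911, 1.197 and 1.41 CPM in AHR KO, and 1.94, 1.09 and 0.870 CPM in AHR Flox. Gpnmb (chr6:49036546-49070929), a glycoprotein induced in lipid-laden macrophages, was at 0.466, 0.763 and 6.29 CPM in ARNT KO, 4.38, 3.73 and 3.60 CPM in ARNT Flox, 0.358, 0.162 and 0.345 CPM in AHR KO, and 0.988, 0.376 and 1.12 CPM in AHR Flox. Both were highest in ARNT KO replicate 3 and next in the ARNT Flox libraries. Lgals3, galectin-3, which other liver cells can also make, was at 6.49, 8.04 and 23.5 CPM in ARNT KO, 12.9, 14.6 and 10.1 CPM in ARNT Flox, 6.70, 6.41 and 7.93 CPM in AHR KO, and 6.23, 5.84 and 8.24 CPM in AHR Flox. Cd9, a tetraspanin of many cell types, was at 8.94, 13.1 and 44.7 CPM in ARNT KO, 13.7, 11.7 and 11.1 CPM in ARNT Flox, 5.47, 6.79 and 12.1 CPM in AHR KO, and 10.1, 7.35 and 10.7 CPM in AHR Flox. In Cd9 the ARNT KO replicate 3 value was more than that of any other library by a wide margin, and ARNT KO replicates 1 and 2 overlapped ARNT Flox. Of the general leukocyte genes, Ptprc, the phosphatase CD45, was at 18.9, 20.5 and 36.5 CPM in ARNT KO, 27.8, 27.2 and 23.8 CPM in ARNT Flox, 17.5, 19.3 and 18.4 CPM in AHR KO, and 16.2, 15.2 and 21.1 CPM in AHR Flox. Aif1, the actin-binding protein IBA1, was at 6.08, 5.85 and 8.10 CPM in ARNT KO, 7.50, 8.67 and 6.37 CPM in ARNT Flox, 6.15, 7.73 and 5.55 CPM in AHR KO, and 4.73, 4.75 and 6.67 CPM in AHR Flox. Ptprc separated the Flox groups and Aif1 did not.

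**Figure D2:**
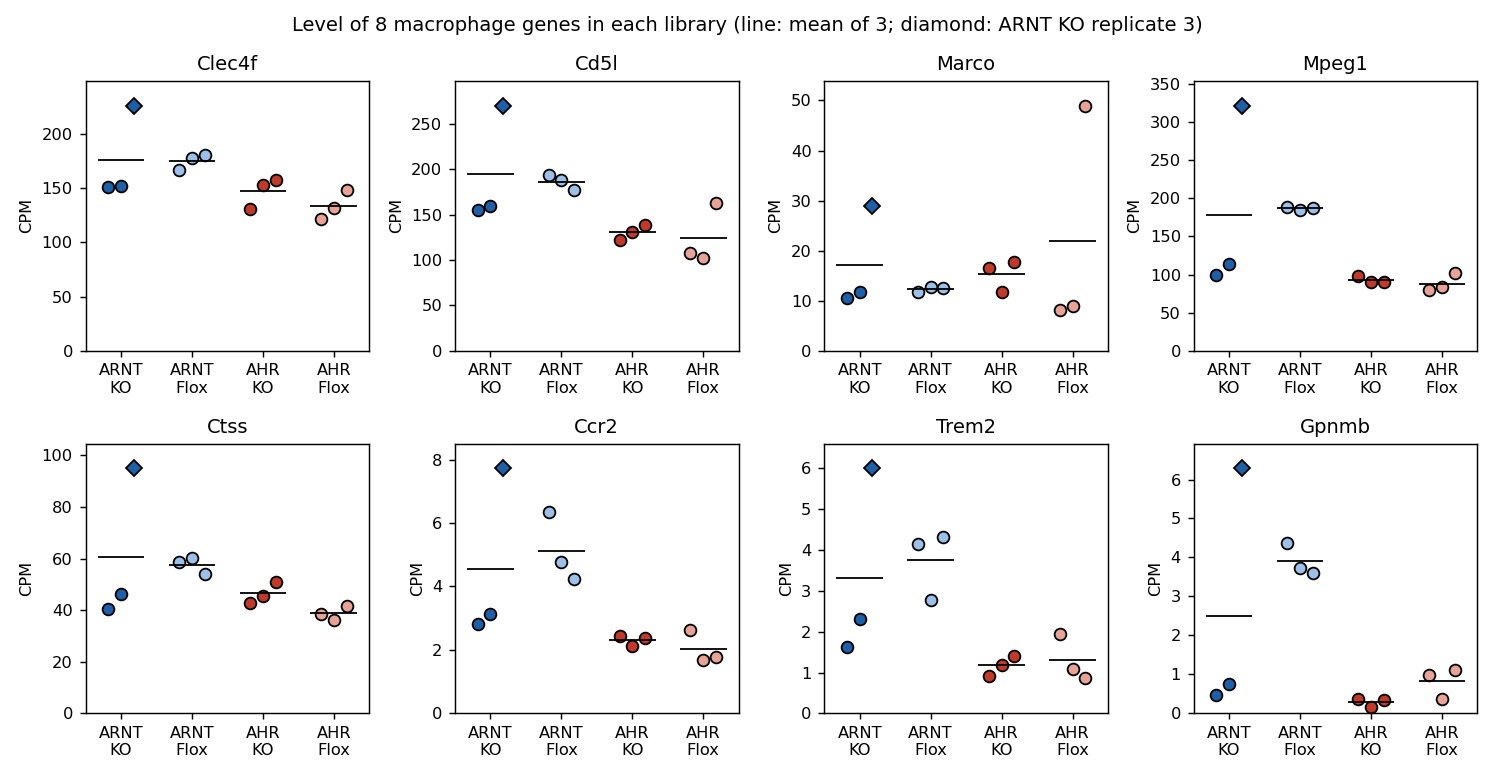
CPM of 8 genes in each library (circles, with a diamond for ARNT KO replicate 3), by group, with a horizontal line at the mean of 3 libraries and the y axis starting at 0. Mpeg1 sits at 185 to 189 CPM in ARNT Flox, against 79.1 to 102 CPM in AHR Flox, and the ARNT KO mean lies between replicate 3 at 322 CPM and its mates at 99.9 and 114 CPM.

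Promoter sequences are shown for the 3 genes called in a knockout comparison, Mpeg1, Gpnmb and Ctss, and for Trem2, which like Fcgr3 (not shown) held both motifs searched. They are the 250 bases before the RefSeq start of each gene in GRCm38.p6, all on the plus strand, at chr19:12460520-12460769 for Mpeg1, chr6:49036268-49036517 for Gpnmb, chr3:95526536-95526785 for Ctss and chr17:48346151-48346400 for Trem2. Capitals mark a match to GAGGAA, the core bound by the myeloid factor PU.1, or to GCGTG, the core bound by AHR with ARNT, on either strand (TTCCTC and CACGC are the reverse strand forms).
Mpeg1: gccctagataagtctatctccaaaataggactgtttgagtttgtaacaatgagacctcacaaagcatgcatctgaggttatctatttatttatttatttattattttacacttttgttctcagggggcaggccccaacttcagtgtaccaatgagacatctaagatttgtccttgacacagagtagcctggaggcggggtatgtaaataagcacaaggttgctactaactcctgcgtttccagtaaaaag
Gpnmb: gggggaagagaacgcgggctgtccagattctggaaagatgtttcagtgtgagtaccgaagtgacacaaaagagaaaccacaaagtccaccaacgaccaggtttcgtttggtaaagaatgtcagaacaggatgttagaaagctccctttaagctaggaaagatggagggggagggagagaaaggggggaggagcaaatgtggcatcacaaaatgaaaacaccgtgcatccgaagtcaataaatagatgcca
Ctss: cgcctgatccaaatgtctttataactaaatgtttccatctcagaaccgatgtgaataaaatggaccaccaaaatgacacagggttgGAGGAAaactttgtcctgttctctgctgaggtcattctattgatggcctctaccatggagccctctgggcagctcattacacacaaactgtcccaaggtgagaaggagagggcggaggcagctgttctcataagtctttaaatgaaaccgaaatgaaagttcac
Trem2: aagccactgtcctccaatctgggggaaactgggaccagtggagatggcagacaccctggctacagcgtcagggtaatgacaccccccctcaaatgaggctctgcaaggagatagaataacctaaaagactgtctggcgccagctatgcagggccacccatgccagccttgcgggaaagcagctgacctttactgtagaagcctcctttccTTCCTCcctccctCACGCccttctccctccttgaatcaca
Mpeg1 and Gpnmb held no match in this window, Ctss held 1 match to the PU.1 core, and Trem2 held 1 match to each. Of the 34 genes, 29 had a promoter in the RefSeq table. GAGGAA was found in 16 of those 29 (55.2%), against 6252 of all 27025 promoters (23.1%). GCGTG was found in 5 of the 29 (17.2%), those of Fcgr3, Fcer1g, Itgax, Lgals3 and Trem2, against 28.2% of all promoters. These are matches of letters, not measured binding.

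The comparison of ARNT KO with ARNT Flox asks which transcripts differ after loss of ARNT. With all 12 libraries, no macrophage gene was called, and ARNT KO replicates 1 and 2 lay on one side of ARNT Flox and replicate 3 on the other for most of them. Without replicate 3, Mpeg1 and Gpnmb were called lower in ARNT KO, and 33 of the 34 genes had negative log2 changes. Mrc1 was the exception at 0.02 ± 0.10.

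In the 12-library fit edgeR called 0 of 34 genes, where 0.0573% of all genes tested were called. At an unadjusted p under 0.05 there were also 0 of 34, against 5.88% of all genes. DESeq2 and limma-voom called 0 as well, where they called 56 and 5 of all 13968 genes. The median log2 change of the 34 genes was −0.04, with 14 of them positive, against 0.0090 over all genes tested. Resident markers had a median of 0.05 and the other 29 genes −0.05. The member with the smallest p was Cd9 (0.87 ± 0.49, unadjusted p = 0.106), whose positive change rested on replicate 3. Leaving out ARNT KO replicate 1 or 2 moved the median of the 34 genes to 0.16 or 0.10, and leaving out replicate 3 moved it to −0.40, so its sign depended on which library of the group was left out.

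Without ARNT KO replicate 3, edgeR called 2 of 34 genes lower and 0 higher, where 1% of the 14073 genes then tested were called lower and 1.37% were called in either direction. Gpnmb fell by 2.66 ± 0.39 on the log2 scale (edgeR adjusted p = 0.00768), with its 2 remaining ARNT KO libraries at 0.466 and 0.763 CPM against 3.60 to 4.38 CPM in ARNT Flox. Mpeg1 fell by 0.81 ± 0.11 (edgeR adjusted p = 0.00574), with the same libraries at 99.9 and 114 CPM against 185 to 189 CPM in ARNT Flox. Over all 20 alternatives the adjusted p ran from 0.00574 to 1.00 for Mpeg1 and from 0.00768 to 1.00 for Gpnmb, and both calls were made in this fit alone. Genes that missed the threshold included Fcgr1 (−0.72 ± 0.17, adjusted p = 0.0764), Tyrobp (−0.48 ± 0.12, adjusted p = 0.0764), Lgals3 (−0.78 ± 0.19, adjusted p = 0.0779) and Ctss (−0.40 ± 0.10, adjusted p = 0.0818). At an unadjusted p under 0.05 there were 19 of 34, against 16.4% of all genes tested. The median log2 change was −0.40 over the 34 genes, −0.20 over the resident markers and −0.43 over the other 29, against 0.0015 over all genes. The difference between the resident markers and the rest was not tested.

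ARNT KO replicates 1 and 2 lay below all ARNT Flox libraries in 28 of the 34 genes, where 18.6% of all genes tested did so, and above them in 0, where 19% did so. The 6 exceptions were Vsig4, Marco, Cd163, Mrc1, Fcgr3 and Cd9. With all 3 ARNT KO libraries, 0 of 34 genes lay wholly above ARNT Flox (5.94% of all genes) and 0 wholly below (4.9%). Summed over the 34 genes, the level was 1035, 1139 and 1982 CPM in ARNT KO, against 1413, 1408 and 1359 CPM in ARNT Flox. In the resident markers the sums were 369, 378 and 592 CPM in ARNT KO against 428, 435 and 427 CPM in ARNT Flox, and in the other 29 genes 666, 761 and 1391 CPM in ARNT KO against 984, 973 and 931 CPM in ARNT Flox. The ARNT KO libraries thus bracketed their control in both classes.

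Replicate 3 of ARNT KO exceeded both of its group mates in 32 of the 34 genes, where 41.6% of all genes tested did so, and it exceeded every other library in 27, where 23.4% did so. Its log2 ratio to the mean of its mates (CPM + 0.1) had a median of 0.93 over the 34 genes, against −0.0027 over all genes, and 16 of the 34 (47.1%) were above 2-fold, against 7.88% of all genes. By role, the median ratio was lowest for the scavenger receptors (0.39), the resident markers (0.58), the general leukocyte genes (0.66) and C1q (0.80). It was 0.95 for the Fc receptors and adaptors and 1.05 for the lysosomal genes. It was highest for the chemokine and growth factor receptors (1.34), the monocyte and integrin genes (1.53) and the lipid-associated genes (1.85). Gpnmb was 10.2-fold, Cd9 4.06-fold, Ly6c2 4.05-fold and Cx3cr1 3.85-fold higher in that library than the mean of its mates. The resident markers were spread, with Marco at 2.58-fold, Cd5l at 1.72-fold, Clec4f at 1.495-fold, Timd4 at 1.28-fold and Vsig4 at 1.24-fold. At the low end, Mrc1 was at 1.03-fold and Cd163 at 0.904 times its mates. These are values of 1 library, with no replicate.

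**Figure D3:**
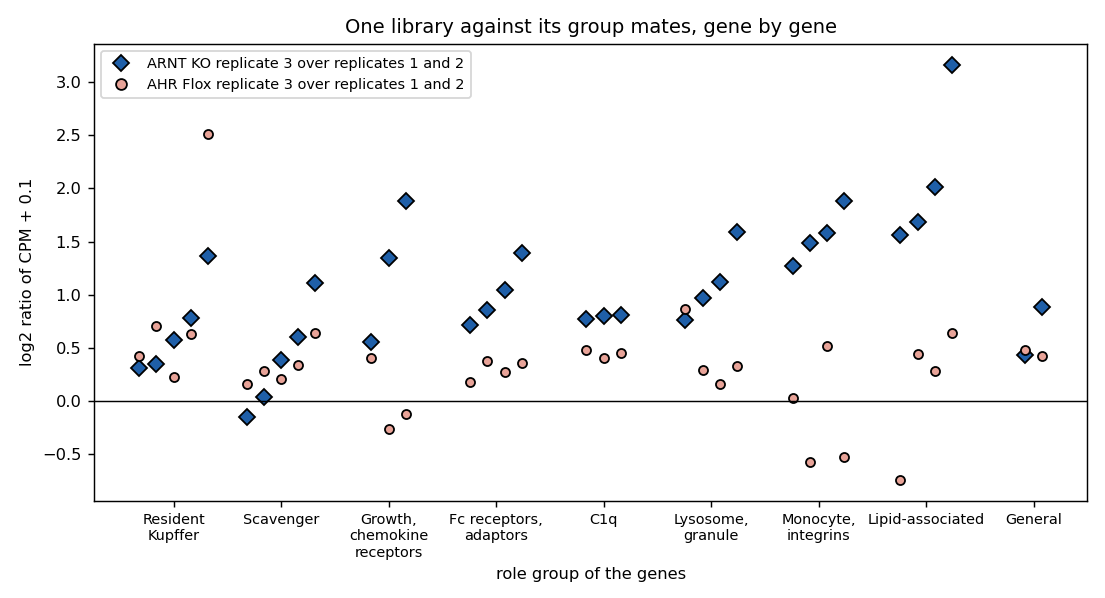
Log2 ratio of CPM + 0.1 in 1 library to the mean of replicates 1 and 2 of its group, for each of the 34 genes by role group, with diamonds for ARNT KO replicate 3 and circles for AHR Flox replicate 3. The diamonds are highest in the lipid-associated genes, up to 3.16 for Gpnmb, and the highest circle is Marco at 2.51.

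Markers of some other cell types also stood out in ARNT KO replicate 3, and those of others did not. The 4 cholangiocyte genes summed to 6.86, 8.77 and 28.3 CPM in ARNT KO, against 11.7, 9.14 and 8.67 CPM in ARNT Flox. The 7 stellate cell genes summed to 309, 412 and 562 CPM in ARNT KO, against 474, 386 and 471 CPM in ARNT Flox. The proliferation genes Mki67 and Top2a summed to 10.8, 8.64 and 32.8 CPM in ARNT KO, against 10.2, 10.9 and 10.01 CPM in ARNT Flox. The endothelial list differed less, with a sum of 330.3, 374 and 403 CPM in ARNT KO, against 402, 359 and 388 CPM in ARNT Flox. Of 10 neutrophil markers listed, 5 were tested, and their list summed to 7.32, 9.47 and 11.2 CPM in ARNT KO, against 11.6, 8.89 and 8.38 CPM in ARNT Flox. The part of any of these lists in the level of the macrophage genes was not tested.

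The comparison of AHR KO with AHR Flox asks the same for AHR. No macrophage gene was called with or without ARNT KO replicate 3. Cd163 and Ctss had all AHR KO libraries above all AHR Flox libraries, Gpnmb had all of them below, and the other 31 genes overlapped.

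In the 12-library fit edgeR called 0 of 34, where 0.0788% of all genes tested were called. DESeq2 and limma-voom called 0 as well, where they called 359 and 10 of all 13968 genes. At an unadjusted p under 0.05 there was 1 of 34, Cd163, against 11.9% of all genes. Cd163 was at 20.1 ± 1.98 CPM in AHR KO and 16.2 ± 1.86 CPM in AHR Flox (SD, n = 3 each), a log2 change of 0.31 ± 0.11 (edgeR adjusted p = 0.279, and 0.175 to 0.577 over the alternatives). Ctss was at 46.5 ± 4.02 CPM in AHR KO and 38.9 ± 2.77 CPM in AHR Flox (log2 change 0.26 ± 0.25, edgeR adjusted p = 0.743). Gpnmb was at 0.288 ± 0.110 CPM in AHR KO and 0.827 ± 0.396 CPM in AHR Flox (log2 change −1.49 ± 0.97, edgeR adjusted p = 0.591), a difference between 5 to 11 counts in AHR KO and 11 to 29 counts in AHR Flox. Separation of the groups was no more frequent than over all genes: 2 of 34 above, where 11.7% of all genes did so, and 1 below, where 9.46% did so. In each role group the smallest p belonged to Clec4f, Cd163, Ccr2, Fcer1g, C1qa, Lyz2, Itgax, Gpnmb and Aif1, and apart from Cd163 their adjusted p ran from 0.591 to 0.889.

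The median log2 change of the 34 genes was 0.08, with 23 positive, against 0.0052 over all genes. The resident markers had a median of 0.02 and the other 29 genes 0.11. Itgax had the highest change (0.60 ± 0.46) and Gpnmb the lowest. Marco had a change of −0.52 ± 0.61, at 15.3 ± 3.21 CPM in AHR KO and 22.0 ± 23.4 CPM in AHR Flox, where the mean rested on replicate 3. That AHR Flox library exceeded both of its mates in 28 of 34 genes (82.4%), against 35.1% of all genes tested, with a median log2 ratio of 0.35. Without it the median change of the 34 genes was 0.22, and without AHR Flox replicate 1 it was 0.02. Scaling without the 50 most abundant genes, of which Alb is one, gave a median of 0.07. Without ARNT KO replicate 3, edgeR again called 0 of 34, where 0.966% of all genes were called, with 3 at an unadjusted p under 0.05 (Cd163, Ctss and Gpnmb), against 16.8% of all genes.

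Beside these values, the T and NK cell list summed to 11.03, 10.4 and 8.94 CPM in AHR KO, against 7.19, 6.56 and 3.81 CPM in AHR Flox. The dendritic cell list summed to 14.6, 14.8 and 14.1 CPM in AHR KO, against 11.4, 11.9 and 11.8 CPM in AHR Flox. Summed over the 34 macrophage genes the level was 928, 1006 and 1078 CPM in AHR KO, against 846, 867 and 1184 CPM in AHR Flox. The resident sum was 310.3, 341 and 364 CPM in AHR KO, against 277, 286 and 418 CPM in AHR Flox, and the sum of the other 29 genes was 617, 665 and 714 CPM in AHR KO, against 569, 582 and 766 CPM in AHR Flox. The macrophage sums overlapped between AHR KO and AHR Flox, unlike the T and NK and dendritic sums. With 12 libraries edgeR called 0 of 10 T and NK genes (smallest adjusted p = 0.101) and 0 of 7 dendritic genes (smallest adjusted p = 0.447). The B cell list overlapped, with a sum of 3.87, 5.05 and 3.57 CPM in AHR KO, against 5.59, 4.37 and 5.01 CPM in AHR Flox.

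**Figure D4:**
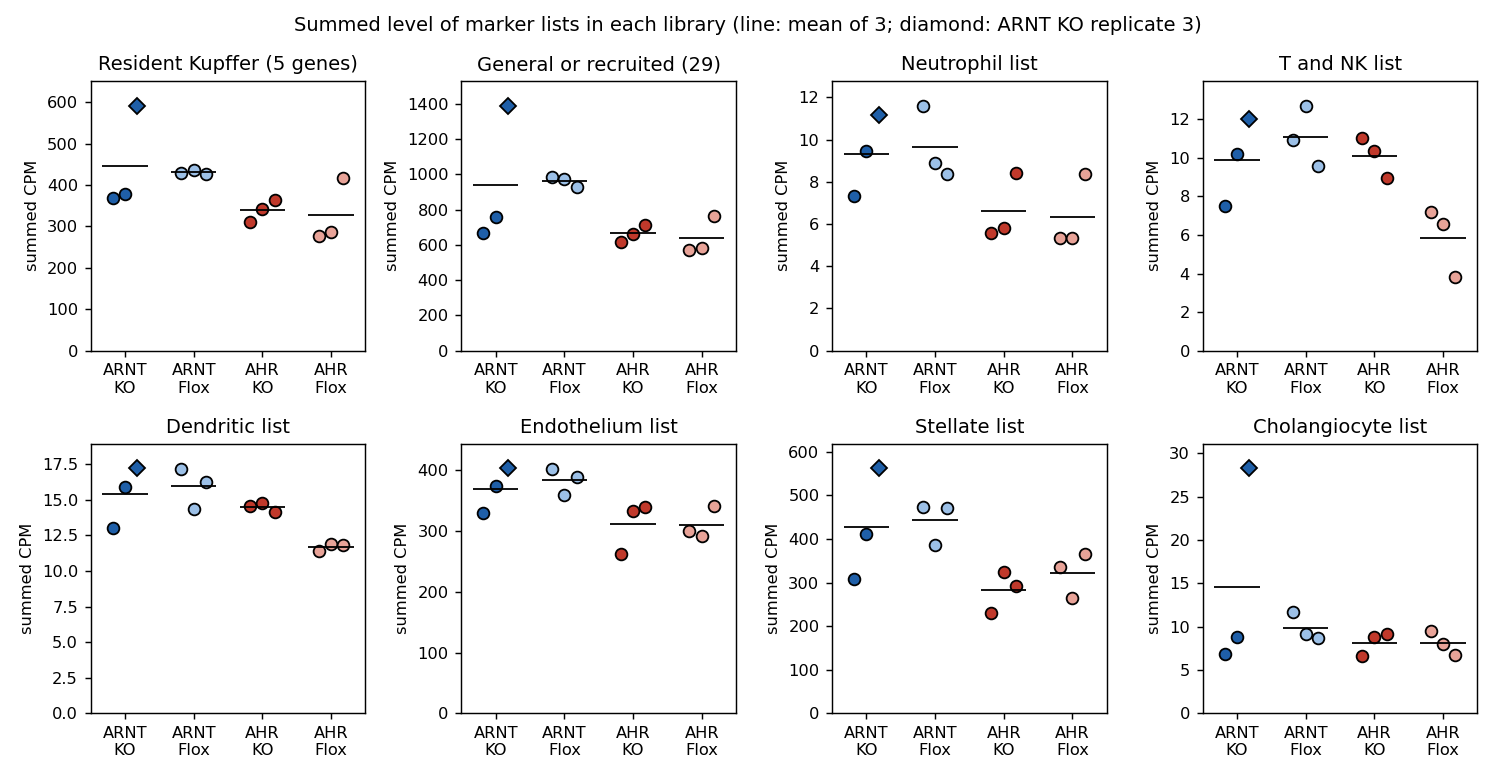
Summed CPM of 8 marker lists in each library (circles, with a diamond for ARNT KO replicate 3), by group, with a line at the mean of 3 libraries and the y axis starting at 0. Both macrophage panels are highest in ARNT KO replicate 3 (592 and 1391 CPM), and the cholangiocyte list is at 28.3 CPM in that library and at 6.60 to 11.7 CPM in the others.

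Whether the effect in ARNT KO differed from the effect in AHR KO was tested as the difference between both log2 changes. With 12 libraries edgeR called 0 of 34, where 0.043% of all genes were called. DESeq2 and limma-voom also called 0, where they called 148 and 7 of all 13968 genes. The median difference in edgeR was −0.11, against 0.012 over all genes. Cd163 was the only member at an unadjusted p under 0.05 (−0.42 ± 0.15, adjusted p = 0.427), against 9.51% of all genes. Without ARNT KO replicate 3, Mpeg1 and Ctss were called, both with a lower log2 change in ARNT KO than in AHR KO. In that fit 1% of all genes were called lower and 1.38% in either direction. For Mpeg1 the change was −0.81 ± 0.11 in ARNT KO and 0.08 ± 0.10 in AHR KO, a difference of −0.89 ± 0.14 (edgeR adjusted p = 0.0180). For Ctss it was −0.40 ± 0.10 in ARNT KO and 0.25 ± 0.09 in AHR KO, a difference of −0.65 ± 0.13 (edgeR adjusted p = 0.0434). The median difference of the 34 genes in that fit was −0.53, with 18 at an unadjusted p under 0.05, against 17.2% of all genes. Ctss lies 29.5 kb from Arnt on chromosome 3 (Arnt is at chr3:95434388-95497240), and whether that position bears on its level was not tested. Fcgr1 and Cd5l are the other members on chromosome 3, at 785.7 and 8063.3 kb from Arnt, and 0 members lie on chromosome 12, which carries Ahr.

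The Flox lines themselves differed in these genes. ARNT Flox lay above AHR Flox in most of them, from the resident markers Clec4f and Cd5l to the monocyte receptor Ccr2 and the lipid-associated genes Trem2 and Gpnmb. ARNT Flox is the control for ARNT KO and AHR Flox for AHR KO, so this comparison shares its libraries with both knockout comparisons, and the values are set side by side only.

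Of the 34 genes, 33 had positive log2 changes in ARNT Flox against AHR Flox, with a median of 0.53, against −0.000745 over all genes tested. Marco was the exception at −0.83 ± 0.61, and AHR Flox replicate 3 carried its high mean. The median was 0.30 over the resident markers and 0.57 over the other 29. By role, the medians were 1.33 for the growth factor and chemokine receptors, 0.95 for the monocyte and integrin genes, 0.60 for the lysosomal genes, 0.58 for the Fc receptors and adaptors, 0.54 for the general leukocyte genes, 0.51 for C1q and 0.46 for the scavenger receptors, and the 4 lipid-associated genes ran from 0.38 to 2.25. All 3 ARNT Flox libraries lay above all 3 AHR Flox libraries in 27 of 34 genes, where 18.1% of all genes tested did so, and below them in 0, where 17.7% did so. The 7 genes that overlapped were Timd4, Marco, Cd163, Mrc1, Lyz2, Cd14 and Aif1.

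With 12 libraries edgeR called 0 of the 34, where 0.329% of all genes were called, with 26 at an unadjusted p under 0.05, against 19.9% of all genes. DESeq2 called 4, Ccr2, Itgax, Mpeg1 and Trem2, where it called 572 of all 13968 genes tested, 290 of them higher. In limma-voom 0 were called, where 31 of all genes were. Without ARNT KO replicate 3, which belongs to neither group but enters the shared estimate of spread, edgeR called 23 of 34 higher and 0 lower, where 6.38% of all genes were called higher and 10.9% in either direction. With only the 6 libraries of both Flox groups it called 22, all among those 23, where 957 of all 13584 genes tested were called higher. The median log2 change was 0.53 without ARNT KO replicate 3 and 0.54 with only both Flox groups. Leaving out AHR Flox replicate 3 moved it to 0.66, and leaving out AHR Flox replicate 1 to 0.46.

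In the fit without ARNT KO replicate 3, Mpeg1 rose by 1.09 ± 0.10 on the log2 scale (edgeR adjusted p = 0.000131), at 187 ± 1.93 CPM in ARNT Flox and 88.0 ± 12.1 CPM in AHR Flox (SD, n = 3 each). Gpnmb rose by 2.25 ± 0.33 (edgeR adjusted p = 0.00277), at 3.90 ± 0.416 CPM in ARNT Flox and 0.827 ± 0.396 CPM in AHR Flox. Itgax rose by 1.72 ± 0.30 (edgeR adjusted p = 0.00648), at 5.56 ± 0.969 CPM in ARNT Flox and 1.68 ± 0.702 CPM in AHR Flox. In each of these genes all ARNT Flox libraries lay above all AHR Flox libraries. Ccr2 rose by 1.33 ± 0.20 (edgeR adjusted p = 0.00335), Cx3cr1 by 1.56 ± 0.29 (adjusted p = 0.00855), Trem2 by 1.50 ± 0.30 (adjusted p = 0.0114) and Ly6c2 by 1.39 ± 0.26 (adjusted p = 0.00867). Fcgr1 rose by 0.96 ± 0.16, Lgals3 by 0.89 ± 0.17 and Cd68 by 0.87 ± 0.16. Smaller rises were called for Laptm5, Fcer1g, Ptprc, Cd5l, Ctss, Tyrobp, C1qb, Csf1r, C1qc, Msr1, Folr2, C1qa and Clec4f, from 0.39 to 0.64.

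The 11 genes not called in that fit were Timd4, Vsig4, Marco, Cd163, Mrc1, Fcgr3, Lyz2, Itgam, Cd14, Cd9 and Aif1. Their log2 changes ran from −0.83 for Marco to 0.50 for Itgam, and 5 of them had an unadjusted p under 0.05. Of all genes tested, called or not, 28.3% had such a p. Of the resident markers 2 of 5 were called and of the other 29 genes 21, all higher, where 6.38% of all genes were called higher. Over the alternatives the adjusted p of Mpeg1 ran from 0.000131 to 0.366 and its log2 change from 1.01 upward. For Gpnmb the adjusted p ran from 0.00277 to 0.406 and the log2 change from 1.88 to 2.51.

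**Figure D5:**
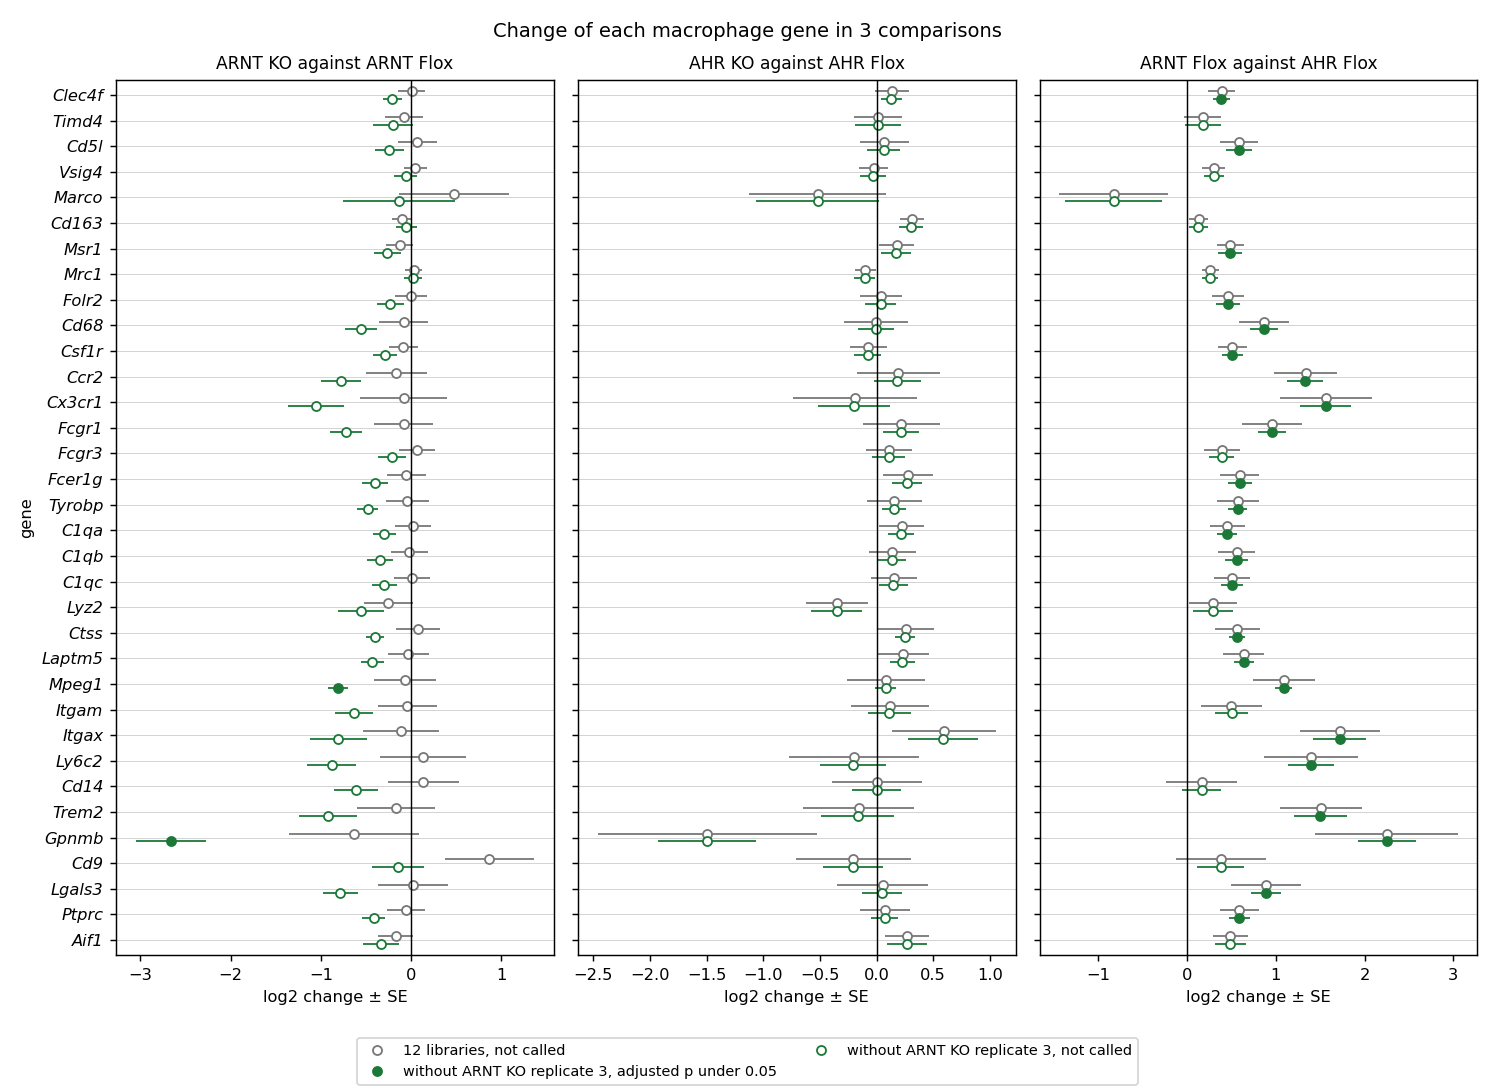
Log2 change of each of the 34 genes with its SE (bars) in 3 comparisons, with grey points for the fit of 12 libraries and green points for the fit without ARNT KO replicate 3, filled where the adjusted p was under 0.05. In ARNT Flox against AHR Flox all genes but Marco lie right of 0 and 23 green points are filled, and in ARNT KO against ARNT Flox 2 green points are filled, Mpeg1 and Gpnmb.

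Markers of several other cell types were higher in ARNT Flox as well. The T and NK cell list summed to 10.9, 12.7 and 9.59 CPM in ARNT Flox, against 7.19, 6.56 and 3.81 CPM in AHR Flox, and the dendritic list to 17.1, 14.4 and 16.3 CPM in ARNT Flox, against 11.4, 11.9 and 11.8 CPM in AHR Flox. The endothelial list summed to 402, 359 and 388 CPM in ARNT Flox, against 299, 291 and 341 CPM in AHR Flox, and the stellate list to 474, 386 and 471 CPM in ARNT Flox, against 337, 265 and 366 CPM in AHR Flox. In all 4 lists the Flox groups did not overlap, whereas the sums of the B cell, cholangiocyte and proliferation lists overlapped between the Flox groups. Without ARNT KO replicate 3 edgeR called 1 of 7 dendritic genes, 4 of 10 T and NK genes, 1 of 8 endothelial genes and 0 of 7 stellate genes higher, against 6.38% of all genes tested. Their part in the macrophage results was not tested.

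The ratio of the summed level of the 29 general or recruited genes to that of the 5 resident markers was 1.81, 2.02 and 2.35 in ARNT KO, 2.30, 2.24 and 2.18 in ARNT Flox, 1.99, 1.95 and 1.96 in AHR KO, and 2.05, 2.04 and 1.84 in AHR Flox. ARNT Flox lay above AHR Flox, ARNT KO replicate 3 was the highest library, and ARNT KO replicate 1 was the lowest. Such sums weigh abundant genes most. Mpeg1 was the most abundant of the 29 genes in ARNT KO replicate 3 and in ARNT Flox. Whether the order of the ratios holds without Mpeg1 was not tested, so the ratio is no measure of a shift between both classes.

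Other genes of macrophage biology were taken from 6 further lists of 62 genes, 61 of them tested. They hold Kupffer cell partners, regulators, recruitment chemokines, lipid-associated companions, the phagocyte oxidase and pattern receptors. With 12 libraries edgeR called 0 of the 61 in any comparison. In ARNT KO against ARNT Flox the median log2 change was −0.03 with 12 libraries and −0.38 without ARNT KO replicate 3. In the second fit 2 of 61 were called lower, against 1% of all genes tested. They were the growth factor receptor gene Csf2ra (−0.59, edgeR adjusted p = 0.0271) and Tlr2, a receptor for bacterial lipoproteins (−0.93, edgeR adjusted p = 0.0370). Of the 10 pattern receptors all had negative changes in that fit, and of the 5 phagocyte oxidase genes all did too. The smallest unadjusted p with 12 libraries was that of Ccl24, an eosinophil chemokine (0.44, adjusted p = 0.815), followed by Tlr2 (−0.48, adjusted p = 0.884).

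In AHR KO against AHR Flox the median of the 61 genes was 0.0081 with 12 libraries, and 0 were called in either fit. Ccl24 was at 2.83, 2.69 and 2.54 CPM in AHR KO, against 1.36, 2.02 and 1.45 CPM in AHR Flox (log2 change 0.73 ± 0.19, edgeR adjusted p = 0.151), and Il18bp, which binds interleukin-18, had a change of 0.39 (adjusted p = 0.391). In the difference between effects, the smallest p values with 12 libraries were those of the fatty acid carrier gene Fabp5 (−2.22, adjusted p = 0.520) and the T cell chemokine gene Ccl5 (−1.06, adjusted p = 0.575), and Csf2ra was called without ARNT KO replicate 3 (−0.82, edgeR adjusted p = 0.0296).

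In ARNT Flox against AHR Flox the median of the 61 genes was 0.48, with 56 positive. Nr1h3, which encodes the liver X receptor alpha (−0.30, edgeR adjusted p = 0.0773), and Tlr2 (1.24, edgeR adjusted p = 0.0812) had the smallest p with 12 libraries. In whole liver the Nr1h3 level cannot be assigned to Kupffer cells. Without ARNT KO replicate 3, 24 of 61 were called higher, against 6.38% of all genes tested, and Nr1h3 lower (−0.31, edgeR adjusted p = 0.0123). By list, 6 of 10 pattern receptors were called higher (Tlr2, Tlr4, Tlr7, Clec7a, Fcgr4 and Cd84). So were 4 of 5 phagocyte oxidase genes and 5 of 13 Kupffer cell partners (Clec1b, Siglec1, Axl, Slc11a1 and Il18bp). Among regulators 4 of 11 were called higher, the factor genes Sfpi1 (PU.1) and Irf8 and the receptor genes Csf2ra and Csf2rb. Of 10 recruitment chemokines tested 2 were called higher: Ccl2, the ligand of Ccr2, by 1.67 (edgeR adjusted p = 0.0102) and Ccl5 by 1.39. Of 12 lipid-associated companions 3 were called higher: the elastase gene Mmp12 by 2.11 (edgeR adjusted p = 0.0191), Cd63 by 0.90 and Lpl by 0.80. Called or not, all 10 pattern receptors, 5 oxidase genes, 10 chemokines and 12 lipid-associated companions had positive log2 changes in that fit.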

How the data were processed

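Poly-A RNA from 12 livers was sequenced, 3 per genotype group, and the authors deposited raw counts per gene, whole numbers for 22537 symbols. Tools in the submitters' processing notes are DESeq2 1.20.0, R 3.5.1, STAR (2.5.4b and 2.6.0c) and bcl2fastq 2.20, and the genome build is mm10. How reads were counted, with which strand setting and annotation, is not given in the sources used here, so reads of overlapping or antisense genes could not be told apart.

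From these counts, edgeR 4.0.16 in R 4.3.3 was used to fit all 12 libraries with 1 mean per group. Genes were kept with filterByExpr (minimum count 10, minimum total 15), which left 13968 genes and 99.98% of the reads, and libraries were scaled with TMM. The quasi-likelihood F test, two-sided, was adjusted by Benjamini-Hochberg across every gene tested. CPM used TMM-scaled library sizes. A count of 0 allows up to 3 counts, or 0.0902 to 0.127 CPM, for counting error only. Libraries of a group differed by a chi-square of 14.4 to 202 per degree of freedom, so no pair was a duplicate. The labels give 3 mice per genotype and pair none across groups.

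The 34 genes and all other lists were chosen with earlier results of these data known. The rule asked for per-library values of the resident markers, of members called in either fit and of the member with the smallest p per role group, and those of the remaining members were added so that all 34 are shown. Of companion genes, those called and the 2 with the smallest p per comparison were named, except that calls within the phagocyte oxidase list are given as a count only. Spi1 and Adgre1 were matched under the older symbols Sfpi1 and Emr1. Exon lengths and positions came from GENCODE M21 (GRCm38, the mm10 assembly), and promoters from RefSeq in GRCm38.p6, with coordinates counted from 1. The fit was tested on simulated data. The alternatives were no filter, at least 1 CPM in 3 libraries, DESeq2 size factors, TMM that leaves out the 50 most abundant genes, DESeq2 1.42.0, limma-voom 3.58.1, only the groups of a comparison, a block for the replicate number, and 12 fits with 1 library left out, among them the fit without ARNT KO replicate 3.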

Additional observations from a re-analysis of the deposited data

Results flagged for a closer look

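Of the 34 macrophage genes, 2 were called for a difference between the knockout effects, in the fit without ARNT KO replicate 3. Of all genes tested in that fit, 1.38% were called. Each effect is a knockout against its own Flox control, so the knockout libraries were not compared directly. The 2 genes, Mpeg1 and Ctss, were also called higher in ARNT Flox than in AHR Flox in that fit. The log2 change in ARNT KO minus that in AHR KO was −0.89 for Mpeg1 (edgeR adjusted p = 0.0180) and −0.65 for Ctss (edgeR adjusted p = 0.0434). With all 12 libraries the differences were −0.15 and −0.18, and neither was called (edgeR adjusted p = 0.964 and 0.935). Over the 19 alternatives run for this comparison, the adjusted p ran from 0.0180 to 1.00 for Mpeg1 and from 0.0434 to 1.00 for Ctss. The cause was not tested.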

How the results depend on the processing

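The number of macrophage genes called was 0 in each of the 4 comparisons with 12 libraries and under most alternatives. It moved without ARNT KO replicate 3, to 2 in ARNT KO against ARNT Flox, to 2 in the difference between effects and to 23 in ARNT Flox against AHR Flox. Of all genes tested in that fit, 1.37%, 1.38% and 10.9% were called in these comparisons, in the same order. In the last comparison the number of macrophage genes was also 22 with only the groups of the comparison, where 1615 of all 13584 genes were called. With DESeq2 it was 4, where 572 of all 13968 genes were called. Leaving out each library in turn gave 0 to 0 genes in AHR KO, 0 to 2 in ARNT KO, 0 to 2 in the difference and 0 to 23 between the Flox groups. The SE of Mpeg1 in ARNT Flox against AHR Flox was 0.10 without ARNT KO replicate 3, which is in neither group, and 0.35 with it. The cause of the difference between tools was not tested. With the replicate block, 0 genes were called in each comparison. The labels pair no mice, so the numbers were not taken to pair samples. Same-numbered libraries correlated in their residuals at 0.0319, 0.0530 and 0.00243 in ARNT KO and ARNT Flox. The values were 0.0463, 0.0796 and 0.220 in AHR KO and AHR Flox, and 0.379, 0.202 and 0.0954 in ARNT Flox and AHR Flox. All of these were positive. Differently numbered libraries ran from −0.078 to 0.0439, −0.202 to 0.133 and −0.301 to 0.172 in the same order. Whether the replicate number marks a shared step was not tested. Genes at a few counts per library, such as Gpnmb and Ly6c2, are limited by depth, and 3 mice a group limit all comparisons.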
